A study of Homo sapiens with 6 samples.

Results

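Antisense RNAs are transcribed from the DNA strand opposite a gene, and many carry the name of that gene followed by -AS1. The data here describe 221 such RNAs in H460 cells, a line from a human large cell carcinoma of the lung, with and without the antidepressant fluoxetine. They were taken from a gene count table by 2 rules, a symbol that ends in -AS1 and does not start with LINC, and a summed count of at least 100 over the 6 libraries. Of 30245 gene symbols in the table, 771 carried such a name and 550 of these lay under the minimum. They were thus chosen by name and by counts summed over both groups, and by no difference between the groups. An RNA can still meet the minimum through the group in which it is high, as IGFL2-AS1 did.

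The series holds 3 control libraries and 3 libraries from cells given 20 µM fluoxetine for 24 h. All 6 came from wild-type cells grown alike in RPMI-1640 medium with serum, and total RNA was sequenced. Nothing in the descriptions says that the libraries of a group came from separate cultures, so p-values measure the spread between these libraries, which may be technical. The libraries differed by more than counting noise and were kept as 6 samples.

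Antisense RNAs can end up beside their sense gene in several ways. Some start next to the promoter of the sense gene and run away from it, some start inside it and run back across its first exons, and others meet the sense gene tail to tail. Members of this class have been described as partners of chromatin proteins, as sponges for microRNAs and as by-products of promoters that fire in both directions, and many are short-lived transcripts of the nucleus. Fluoxetine blocks serotonin reuptake, and as a cationic amphiphilic drug it also collects in lysosomes.

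The libraries held 15999067 to 27571727 counts, and all 3 control libraries were deeper than the 3 fluoxetine libraries. The antisense RNAs took 0.148%, 0.143% and 0.142% of the counts in the control libraries and 0.162%, 0.158% and 0.156% in the fluoxetine libraries, so their summed share did not overlap between the groups. Without the 5 most abundant members the shares were 0.101% to 0.106% and 0.112% to 0.115%. Levels are given as CPM, counts scaled to a common library size, with TMM factors, a correction for library composition. They are relative: more RNA of one kind and less RNA of all other kinds cannot be told apart. The keratin genes KRT8, KRT18 and KRT19 were at 287 CPM or more in every library, and the leukocyte gene PTPRC stayed at or under 0.104 CPM. The lung lineage genes NKX2-1 and SFTPC were at or under 0.412 CPM, and EPCAM, a surface protein of most epithelia, was at or under 0.575 CPM. The endothelial genes PECAM1 and VWF were at or under 0.183 CPM, and of the fibroblast genes COL1A1 had 3.26 to 5.40 CPM and DCN at most 0.418 CPM. SFTPB, SCGB1A1, CD3E, CDH5 and PDGFRA were not analysed here.

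Fluoxetine was followed by higher levels of a small group of antisense RNAs and by no lower level that passed the test. At an adjusted p under 0.05 (edgeR quasi-likelihood test, adjusted over all 14674 genes tested), 19 of the 221 antisense RNAs were higher and 0 were lower. The higher calls made up 8.60% of the antisense RNAs, beside 8.32% of all genes called higher, 6.52% called lower and 14.8% called in either direction. The 19 calls in the higher direction thus lay near the background. At an unadjusted p under 0.05, 38 antisense RNAs were higher and 11 lower, beside 2390 higher and 2109 lower of all 14674 genes. DESeq2 and limma-voom, like edgeR, called 0 antisense RNAs lower at an adjusted p under 0.05. Lower calls appeared in other fits, 5 without a filter on low counts, 7 with the replicate number as a block and 1 at equal depth. The log2 fold change, fluoxetine over control, was above 0 for 134 antisense RNAs (60.6%), beside 51.6% of all genes tested. The median was 0.09 beside 0.01 over all genes tested. This lean was not particular to the -AS1 names. Other genes annotated as antisense had a median of 0.12 (59.8% above 0), other long intergenic RNAs 0.08 (60.2%) and the sense genes 0.07 (59.2%).

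The number of calls moved when single libraries were left out. It was 11 without control library 1, 7 without control library 2, 26 without control library 3 (of which 5 were lower), 7 without fluoxetine library 1, 17 without fluoxetine library 2 and 9 without fluoxetine library 3. The calls of 7 antisense RNAs held in all 6 of these fits and in every other fit that gave them an adjusted p: RUSC1-AS1, SNAI3-AS1, IGFL2-AS1, PLS3-AS1, DNAH17-AS1, NR2F1-AS1 and OIP5-AS1. The calls of SLCO4A1-AS1 and SLC25A25-AS1 held in none of the 6.

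**Figure D1:**
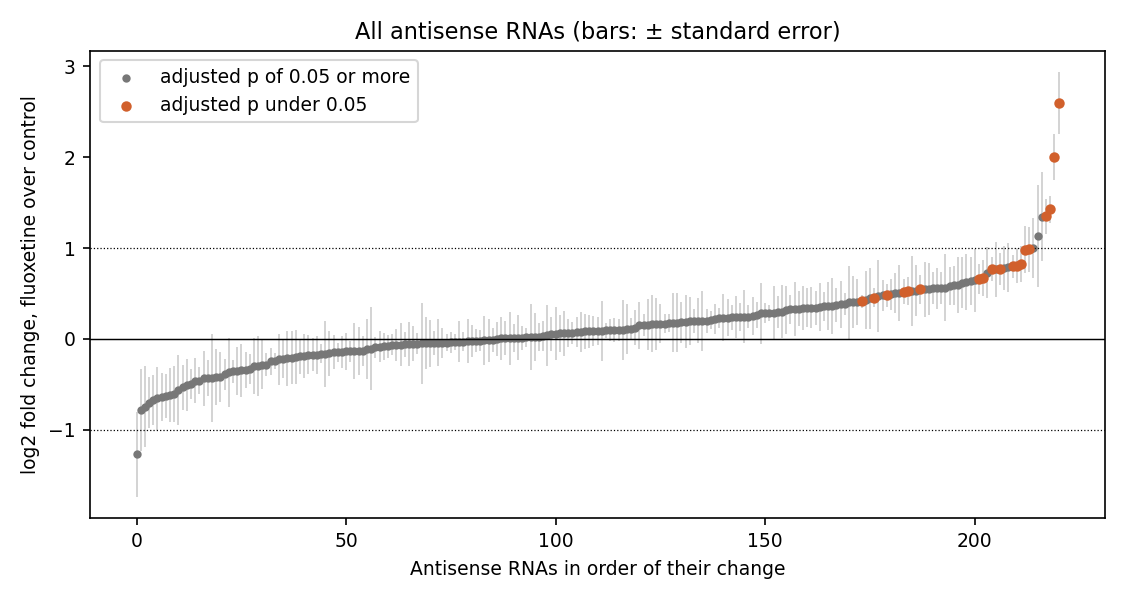
Log2 fold changes (fluoxetine over control) of all 221 antisense RNAs in rising order, with bars of ± 1 standard error and orange points for an adjusted p under 0.05. The 19 orange points all lie above 0, and 4 of them lie above 1.

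A change of at least 2-fold passed the test for 4 antisense RNAs, RUSC1-AS1, SNAI3-AS1, IGFL2-AS1 and PLS3-AS1, all higher. Over all genes 1.33% were called higher by this rule, 0.17% lower and 1.5% in either direction. The first of these, RUSC1-AS1 (ENSG00000225855, chr1:155316863-155324176, minus strand), is named after RUSC1, an adaptor protein of neurons and vesicle traffic. Its counts were 147, 137 and 137 in the control libraries and 302, 266 and 277 in the shallower fluoxetine libraries. The groups were far apart, at 6.30 ± 1.13 and 16.8 ± 1.4 CPM (SD, n = 3 each), with a log2 fold change of 1.43 (SE 0.15) and an adjusted p of 3.15e-04.

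SNAI3-AS1 (ENSG00000260630, chr16:88663298-88687186, plus strand) spans SNAI3, a gene of the SNAIL family of zinc finger repressors. It had 21, 34 and 25 counts in control and 70, 86 and 84 counts with fluoxetine. Every fluoxetine library was above every control library, and the mean level went from 1.22 ± 0.484 to 4.78 ± 0.442 CPM (SD, n = 3 each; log2 fold change 2.0, SE 0.25, adjusted p = 0.00102). SNAI3 itself had 1 to 2 counts in control and 5 to 15 counts with fluoxetine, too few to be tested.

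IGFL2-AS1 (ENSG00000268621, chr19:46189166-46203083, minus strand) showed the largest change of the 19, from a low start. Counts were 9, 3 and 14 in control and 41, 39 and 36 with fluoxetine. These correspond to 0.361 ± 0.184 and 2.31 ± 0.189 CPM (SD, n = 3 each; log2 fold change 2.60, SE 0.34, adjusted p = 0.00126). At 9, 3 and 14 counts the control level rests on few reads and control library 2 lies at the floor of 3 counts. Most of its counts came from the fluoxetine libraries, so IGFL2-AS1 met the minimum on the summed count through the group in which it was high. At its control counts in both groups it would have lain under that minimum. Its place among the 19 calls thus depends on the fluoxetine counts. IGFL2, a small secreted protein of the insulin growth factor-like family, lies 59977 bases away from start to start and was also higher (14.0 ± 2.55 to 28.7 ± 6.74 CPM, log2 fold change 1.03, adjusted p = 0.00602).

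PLS3-AS1 (ENSG00000271826, chrX:115518182-115562731, minus strand) starts inside PLS3, which encodes the actin-bundling protein plastin 3. Control libraries held 30, 27 and 44 counts, and fluoxetine libraries held 53, 68 and 68. The level went from 1.47 ± 0.128 to 3.76 ± 0.455 CPM (SD, n = 3 each; log2 fold change 1.35, SE 0.19, adjusted p = 0.00217), and the groups did not overlap. PLS3 was higher as well, by a log2 fold change of 0.30 (SE 0.08, adjusted p = 0.0284).

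Among the changes under 2-fold, DNAH17-AS1 (ENSG00000267432), inside the gene of an axonemal dynein heavy chain, had 250, 225 and 306 counts in control and 307, 294 and 401 with fluoxetine. Scaled for depth this was 11.5 ± 0.274 against 19.9 ± 3.28 CPM (log2 fold change 0.80, adjusted p = 0.00385). NR2F1-AS1 (ENSG00000237187), beside the gene of the nuclear receptor COUP-TFI, went from 5.06 ± 0.420 to 8.59 ± 0.612 CPM (log2 fold change 0.77, adjusted p = 0.00553). In both RNAs the fluoxetine libraries lay above all control libraries. OIP5-AS1 (ENSG00000247556), the conserved RNA also called cyrano, known for its part in the turnover of miR-7, had 2338, 2040 and 3209 counts in control and 2441, 2391 and 2546 with fluoxetine. This gave 110 ± 6.19 and 147 ± 4.53 CPM (log2 fold change 0.41, SE 0.07, adjusted p = 0.00586).

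The other 12 calls were between 0.45 and 0.99 on the log2 scale, and each was lost without at least 1 of the 6 libraries. ATP2B1-AS1, named after a plasma membrane calcium pump, was highest with 0.99 (adjusted p = 0.0263), and DEPDC1-AS1 followed with 0.98 (adjusted p = 0.033). ALOX12-AS1, at the gene of an arachidonate lipoxygenase, rose by 0.82, CYP1B1-AS1, at the gene of a cytochrome P450 that oxidises hydrocarbons and estrogens, by 0.81 and SGMS1-AS1, at a sphingomyelin synthase gene, by 0.77. SLCO4A1-AS1, FGF13-AS1 and SLC9A3-AS1 followed with 0.67, 0.66 and 0.54, and RPARP-AS1 and SLC25A25-AS1 each had 0.52. LYPLAL1-AS1 and ZFPM2-AS1 had the smallest changes of the 12, at 0.48 and 0.45. The adjusted p of SLC9A3-AS1 was 0.0487, beside counts of 1071, 859 and 887 in control and 1110, 1122 and 843 with fluoxetine.

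**Figure D2:**
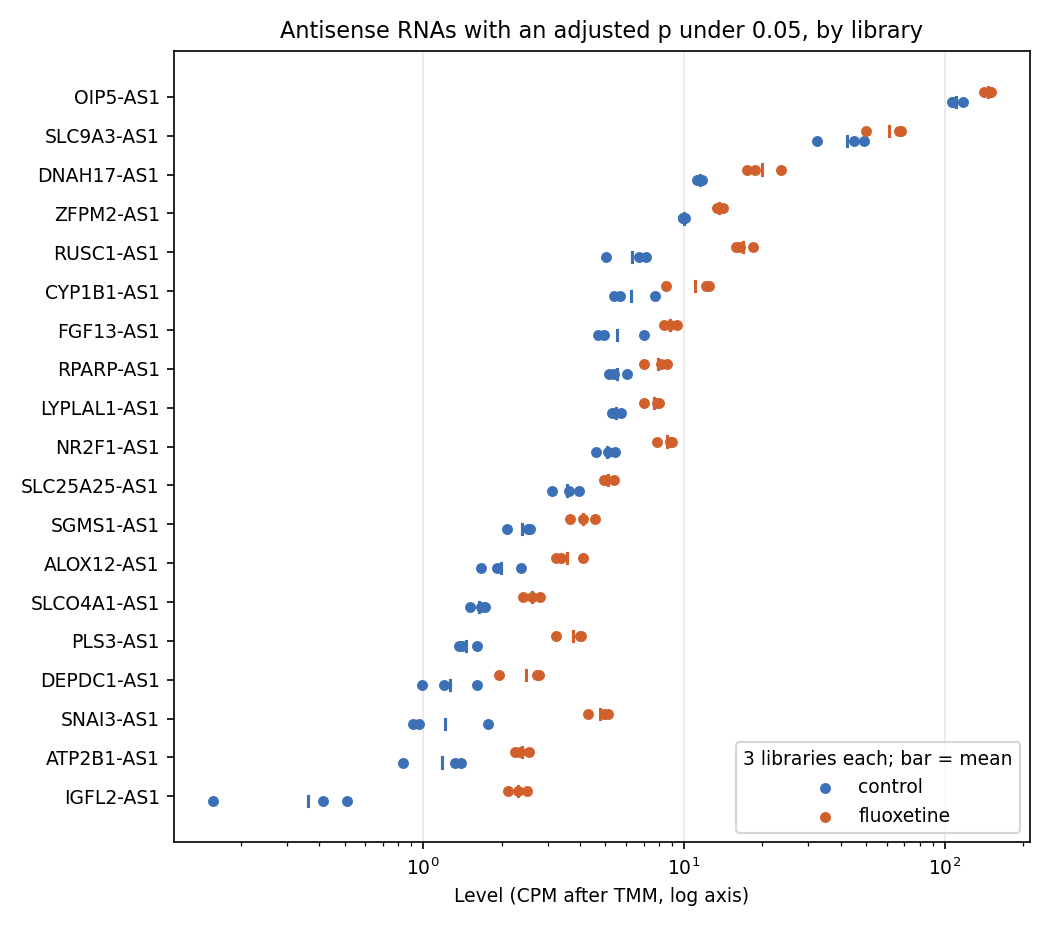
Levels of the 19 antisense RNAs with an adjusted p under 0.05 in each library (CPM, log axis), control in blue and fluoxetine in orange, with a bar at each group mean. IGFL2-AS1 starts lowest, at 0.361 CPM, OIP5-AS1 highest, at 110 CPM, and the groups of SLC9A3-AS1 nearly touch.

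More calls fell on members of higher count. With the antisense RNAs split by summed count, 1 of the 76 with the lowest counts was called, 8 of the 71 in the middle and 10 of the 74 with the highest. The median standard error of the log2 fold change was 0.30, 0.22 and 0.13 in these sets, beside 0.13 over all genes. A change in a member of low count was therefore less detectable at this depth, and a missing call among the lowest counts says little about that RNA. The median summed count of the antisense RNAs was 297, and the values ran from 100 to 17552. A pair of members outside the calls, both chosen after their values were seen, had wide spreads. SPATA3-AS1 had the lowest log2 fold change, -1.27 (22, 30 and 30 counts in control, 11, 2 and 12 with fluoxetine, adjusted p = 0.0945). LBX2-AS1 had 1.35 (11, 14 and 14 counts, then 11, 18 and 45, adjusted p = 0.0934), and fluoxetine library 3 lay far above the other fluoxetine libraries.

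Just inside the minimum lay HOXC-AS1, TTN-AS1 and EIF1B-AS1 with summed counts of 100, 101 and 102. Just outside lay NFYC-AS1 and SLC25A21-AS1 with 98 each and ZBED3-AS1 with 99. TTN-AS1, opposite the gene of the giant muscle protein titin, had 16, 19 and 20 counts in control and 20, 12 and 14 with fluoxetine, which overlap.

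Levels of different RNAs can be compared per length only, and exon bases that no other gene shares were used for this. LRRC75A-AS1, a host transcript of small nucleolar RNAs, was the highest in control with 51.4 CPM per kb, followed by RNASEH1-AS1 with 29.3, MAPKAPK5-AS1 with 20.3, DPP10-AS1 with 16.4 and FGD5-AS1 with 12.9 CPM per kb. None of the 5 passed the test. LRRC75A-AS1 had 159 ± 13.7 CPM in control and 134 ± 8.31 with fluoxetine (log2 fold change -0.24, adjusted p = 0.0813), and RNASEH1-AS1 had 32.0 ± 4.59 and 25 ± 2.69 CPM (log2 fold change -0.36, adjusted p = 0.0837). In both, the groups did not overlap, and both were called lower without control library 3, with adjusted p-values of 0.0332 and 0.02.

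Several antisense RNAs have been studied in tumours. Beside OIP5-AS1 and ZFPM2-AS1, which were higher, the listed ones with a row were not called: FGD5-AS1 (0.21), PSMA3-AS1 (0.17), PTOV1-AS1 (0.11), GABPB1-AS1 (0.07), ELFN1-AS1 (-0.05), TP73-AS1 (-0.07), ARRDC1-AS1 (-0.17) and MAPKAPK5-AS1 (-0.17), given as log2 fold changes. Approximate 95% intervals, from the standard error and a normal quantile, were 0.02 to 0.41 for FGD5-AS1 and -0.37 to 0.04 for MAPKAPK5-AS1. Such intervals are narrower than the quasi-likelihood test implies, and FGD5-AS1 was not called. A 2-fold change lay far outside both. FGD5-AS1 was called higher (log2 fold change 0.31) without control library 3.

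A further list held antisense RNAs whose sense gene acts in lipid metabolism, lysosomes or stress responses. SLC25A25-AS1 was called among them, and the other 6 were not. SLC7A11-AS1, opposite the gene of the cystine transporter, varied most, with 17, 25 and 84 counts in control and 74, 19 and 104 with fluoxetine (log2 fold change 1.14, SE 0.56, adjusted p = 0.204). The groups overlapped, and the call depended on the libraries, since leaving out control library 3 or fluoxetine library 2 brought adjusted p to 0.022 and 0.0417. STARD4-AS1 had 0.36 (adjusted p = 0.46), USP2-AS1 -0.64 (adjusted p = 0.13), and SLC16A1-AS1, ATP6V0E2-AS1 and CEBPB-AS1 lay between -0.17 and 0.05.

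The antisense RNAs were next read against the genes they are named after. A row was found for 216 sense genes, 1 of them, KDM7A, through the older symbol JHDM1D, and for 201 pairs both rows passed the filter on low counts. Of the 201 sense genes 20 were higher and 6 lower, or 9.95% and 2.99%, beside 8.32% and 6.52% of all genes. This count of 26 was 14 without control library 1, 12 without control library 2, 57 without control library 3, 8 without fluoxetine library 1 and 11 without fluoxetine library 3. In 7 pairs both partners were higher, in 10 the antisense RNA alone was higher, in 13 the sense gene alone was higher and in 6 the sense gene alone was lower. In no pair did the 2 partners pass the test in opposite directions, and 165 pairs had no call. Across the 201 pairs Pearson's r between the partners' log2 fold changes was 0.26 and Spearman's rho was 0.19, a description over pairs that share the same 6 libraries.

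**Figure D3:**
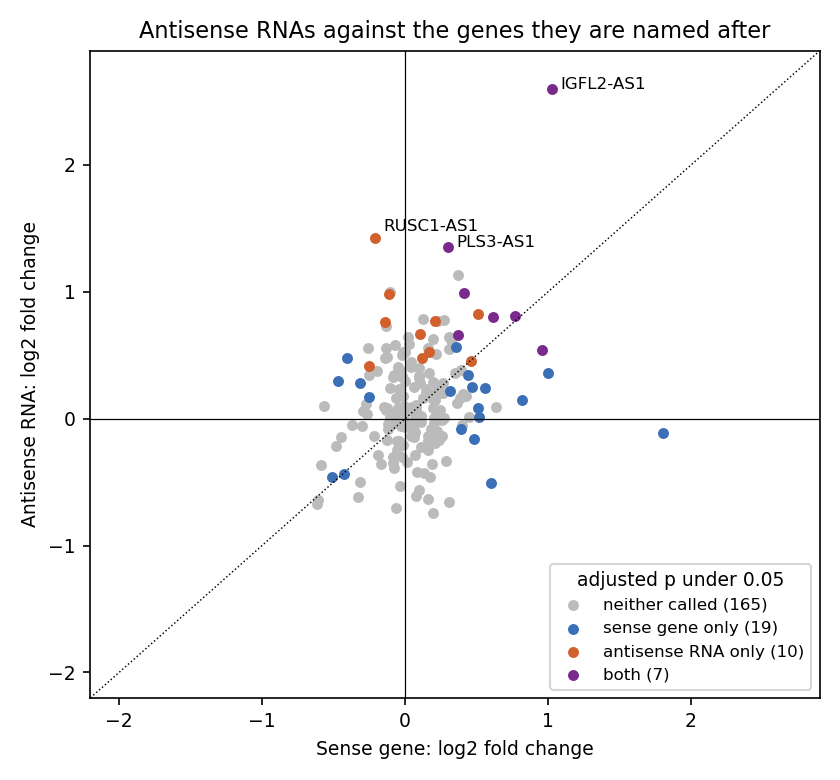
Log2 fold changes of 201 antisense RNAs (vertical) against those of their sense genes (horizontal), coloured by which partner had an adjusted p under 0.05; the dotted line marks equal change. IGFL2-AS1 and PLS3-AS1 lie above the line with both partners called, and RUSC1-AS1 lies above it with RUSC1 below 0.

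The pairs with both partners higher were those of IGFL2, PLS3, DNAH17, CYP1B1, ATP2B1, FGF13 and SLC9A3. CYP1B1 and CYP1B1-AS1 changed by similar amounts, 0.77 and 0.81 on the log2 scale, from 421 ± 50.5 to 718 ± 42.8 CPM for the gene. SLC9A3, a sodium-proton exchanger, went from 10.4 ± 0.849 to 20.1 ± 2.86 CPM, more than its antisense RNA.

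Whether the balance within a pair moved was read from the antisense-to-sense ratio in each library (log2 CPM of the antisense RNA minus that of the sense gene, prior count 2). It did not overlap between the groups in 48 of the 201 pairs, or 23.9%, with 36 higher and 12 lower with fluoxetine, beside 33.7% of all genes whose own levels did not overlap. With 3 against 3 libraries the smallest exact two-sided permutation p is 0.1, so no single pair can pass 0.05. The ratio of RUSC1-AS1 to RUSC1 was -4.12, -3.97 and -4.14 in control and -2.31, -2.74 and -2.31 with fluoxetine (exact permutation p = 0.1). RUSC1 itself went from 107 ± 15.1 to 92.8 ± 12.3 CPM and was not called (log2 fold change -0.21, adjusted p = 0.279).

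The ratio moved most at CRYM, whose product binds thyroid hormone, and there it fell. It was 1.51, 1.23 and 0.71 in control and -0.36, -1.23 and -0.29 with fluoxetine. CRYM-AS1 had 0.917 ± 0.254 CPM in control and 0.858 ± 0.178 CPM with fluoxetine, while CRYM rose from 7, 4 and 16 counts to 21, 28 and 20 (log2 fold change 1.80, SE 0.38, adjusted p = 0.0136). JHDM1D-AS1 against KDM7A, a histone demethylase, also fell, by 1.09 on the log2 scale, with the gene higher (log2 fold change 0.60, adjusted p = 0.0444) and the antisense RNA at -0.50 (adjusted p = 0.265). The ratio rose by 1.46 for IGFL2-AS1 and by 1.04 for DEPDC1-AS1.

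STARD4, a carrier of cholesterol between membranes, and SPAG5, a spindle protein, show sense genes that moved without a call of the antisense RNA. STARD4 went from 84.9 ± 9.42 to 170 ± 10.3 CPM (log2 fold change 1.0, adjusted p = 1.43e-04), beside 0.36 for STARD4-AS1, whose counts of 21, 46 and 51 and of 34, 41 and 37 overlapped. SPAG5 fell by 0.40 on the log2 scale (adjusted p = 0.00554), and SPAG5-AS1 had a log2 fold change of 0.48. In control, the antisense RNA was above its sense gene per kb of unshared exon in 54 of 215 pairs with at least 200 unshared bases in both, and the median sense-to-antisense ratio was 4.32. OIP5-AS1 was among the 54, at 9.29 CPM per kb against 5.52 for OIP5.

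Calls were found in most of the arrangements of antisense RNA and sense gene. Head to head overlap was the most frequent, with 88 antisense RNAs, of which 8 were called. Of 43 that met the sense gene tail to tail 4 were called, of 27 inside the sense gene 3 and of 15 that span it 2. These shares were 9.09%, 9.30%, 11.1% and 13.3%, beside 8.32% of all genes called higher. The remaining called ones were IGFL2-AS1, convergent without overlap, and RPARP-AS1, which has no sense gene row. Among the 42 divergent RNAs that share no base with the sense gene, 40 of them with starts within 1000 bases, edgeR called 0. At an unadjusted p under 0.05, 5 of the 42 were higher and 3 lower, beside 2390 and 2109 of all 14674 genes. Whether the divergent RNAs differ from the other arrangements was not tested.

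The gene beside an antisense RNA is not always the one in its name. Besides the sense gene, 67 antisense RNAs had another tested gene that overlapped them or started within 2000 bases, among them 5 of the called ones. Such a gene was called higher, at any fold, at the loci of 3 called antisense RNAs and of 6 that were not called. At 3 loci such a gene was called at least 2-fold higher, and all 3 genes encode enzymes of the sterol pathway. These loci were singled out after their values were seen. MVD, which makes isopentenyl pyrophosphate from mevalonate pyrophosphate, starts 137 bases from SNAI3-AS1 on the other strand.

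MVD had 586, 484 and 361 counts in control and 1435, 1736 and 1040 with fluoxetine (log2 fold change 1.96, SE 0.26, adjusted p = 0.00126), beside the 2.0 of SNAI3-AS1. FDPS, the synthase of farnesyl pyrophosphate, overlaps RUSC1-AS1 by 3804 bases on the other strand. It had 1162, 815 and 1131 counts and then 1586, 1617 and 1550 (log2 fold change 1.05, SE 0.10, adjusted p = 1.99e-04). All fluoxetine libraries were above all control libraries for both genes.

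The third locus went another way. LSS, the lanosterol synthase gene, starts 393 bases from MCM3AP-AS1 and went from 58.5 ± 4.12 to 203 ± 3.65 CPM (log2 fold change 1.80, SE 0.08, adjusted p = 1.17e-06). MCM3AP-AS1 (ENSG00000215424, chr21:46229217-46259390, plus strand) had 197, 163 and 275 counts in control and 158, 109 and 155 with fluoxetine, and its groups overlapped (log2 fold change -0.13, approximate 95% interval -0.45 to 0.18, adjusted p = 0.623). By these counts an antisense RNA thus rose next to MVD and FDPS, and none was detected to rise next to LSS. Whether unspliced FDPS RNA adds to the counts of RUSC1-AS1 was not tested.

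**Figure D4:**
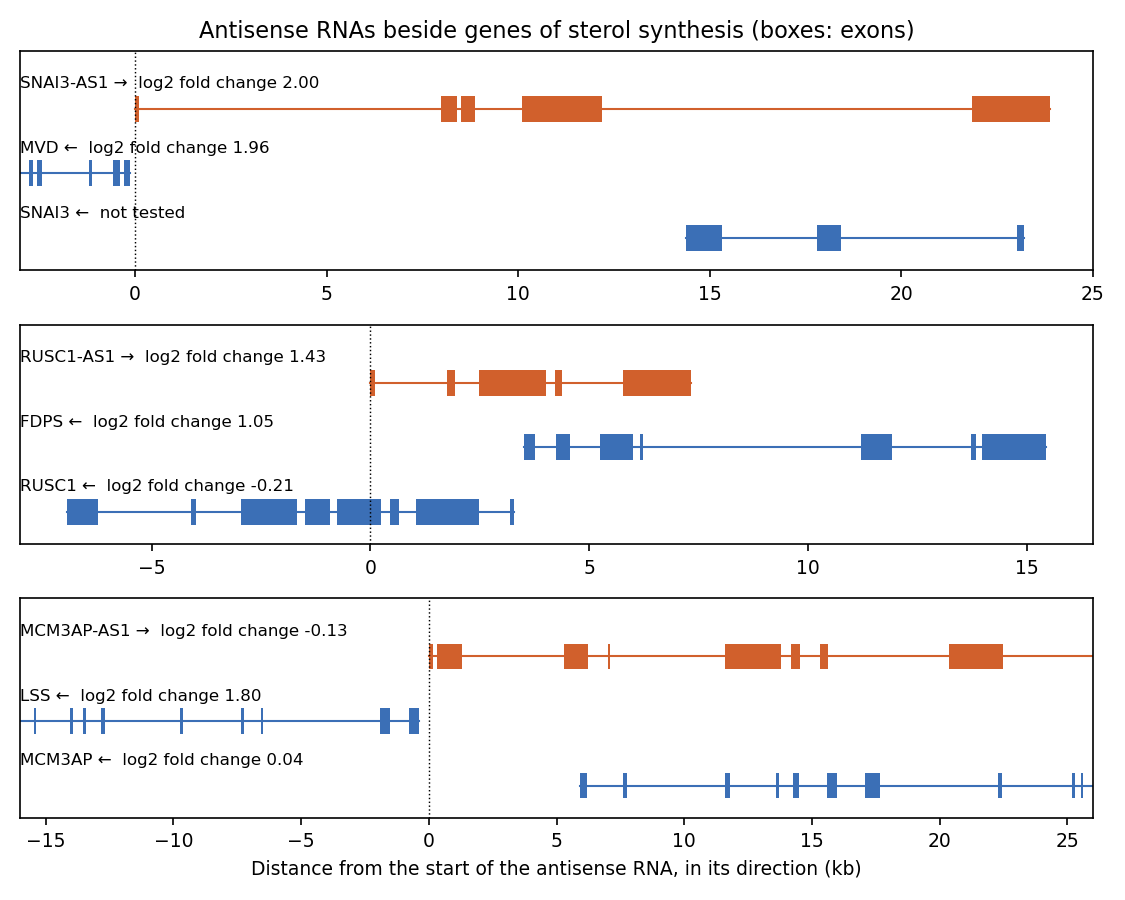
Exons (boxes) of SNAI3-AS1, RUSC1-AS1 and MCM3AP-AS1 in orange and of neighbouring genes in blue, by distance in kb from the start of the antisense RNA, with arrows for the direction of transcription and the log2 fold change beside each name. MVD (1.96) and LSS (1.80) start just upstream of the antisense RNA, FDPS (1.05) overlaps the end of RUSC1-AS1, and genes that reach past the panel are cut at its edge.

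The sequences around the starts of these antisense RNAs are shown because 2 of them share their start region with a sterol enzyme gene. They are RefSeq windows of 300 bases on GRCh38.p14, from 250 bases before a start to 50 after it, 5′ to 3′ on the strand of the antisense RNA, and a RefSeq start need not be the start in the count table. Capitals mark CCAAT (or its reverse complement) and CACGTG, the E-box. The windows are chr16:88663123-88663422 on the plus strand for SNAI3-AS1, chr1:155324127-155324426 on the minus strand for RUSC1-AS1, chr21:46228981-46229280 on the plus strand for MCM3AP-AS1, chrX:115562682-115562981 on the minus strand for PLS3-AS1 and chr15:41283740-41284039 on the plus strand for OIP5-AS1.
SNAI3-AS1: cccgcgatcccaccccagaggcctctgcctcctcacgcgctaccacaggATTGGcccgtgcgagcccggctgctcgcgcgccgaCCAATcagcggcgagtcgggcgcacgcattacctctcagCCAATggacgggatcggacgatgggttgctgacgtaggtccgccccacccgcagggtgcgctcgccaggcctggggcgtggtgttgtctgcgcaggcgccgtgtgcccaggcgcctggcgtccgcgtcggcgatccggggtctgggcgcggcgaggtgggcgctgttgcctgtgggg
RUSC1-AS1: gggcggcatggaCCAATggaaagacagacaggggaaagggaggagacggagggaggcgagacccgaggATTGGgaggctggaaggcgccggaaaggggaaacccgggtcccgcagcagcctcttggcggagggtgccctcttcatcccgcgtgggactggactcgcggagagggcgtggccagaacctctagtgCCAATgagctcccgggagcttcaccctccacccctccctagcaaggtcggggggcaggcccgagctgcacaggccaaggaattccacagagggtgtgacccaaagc
MCM3AP-AS1: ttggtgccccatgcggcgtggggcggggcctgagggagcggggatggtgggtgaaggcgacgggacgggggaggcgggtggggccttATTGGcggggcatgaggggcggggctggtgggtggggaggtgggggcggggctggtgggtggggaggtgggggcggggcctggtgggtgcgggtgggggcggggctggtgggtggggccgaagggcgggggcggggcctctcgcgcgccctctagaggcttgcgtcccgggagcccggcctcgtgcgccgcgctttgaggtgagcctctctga
PLS3-AS1: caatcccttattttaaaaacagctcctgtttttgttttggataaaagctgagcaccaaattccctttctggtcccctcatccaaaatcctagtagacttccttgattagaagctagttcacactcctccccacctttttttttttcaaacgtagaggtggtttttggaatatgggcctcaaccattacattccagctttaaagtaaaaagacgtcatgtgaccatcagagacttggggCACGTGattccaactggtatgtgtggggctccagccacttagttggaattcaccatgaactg
OIP5-AS1: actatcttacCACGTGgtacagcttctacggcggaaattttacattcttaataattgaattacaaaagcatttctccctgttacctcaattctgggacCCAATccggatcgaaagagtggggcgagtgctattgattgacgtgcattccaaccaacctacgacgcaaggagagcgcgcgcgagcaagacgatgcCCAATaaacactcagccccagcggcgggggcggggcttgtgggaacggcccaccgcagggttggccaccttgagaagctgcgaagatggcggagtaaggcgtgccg

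The SNAI3-AS1 window shares 219 bases with the window of MVD, which faces the other way, and all 3 of its CCAAT matches lie in the shared stretch. The MCM3AP-AS1 window shares 44 bases with that of LSS and holds 1 CCAAT match, outside the shared stretch. RUSC1-AS1 has a second RefSeq window with no match. PLS3-AS1 holds an E-box and no CCAAT, and OIP5-AS1 holds both.

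Both strands were searched for 3 motifs, none of which contains another: CCAAT, the E-box and TCACNCCAC, a sterol regulatory element. Windows were on hand for 146 of the 221 antisense RNAs and for 14 of the 19 called ones. CCAAT was in 54 of 180 antisense windows (some RNAs have several) beside 34.6% of all 35116 windows, and the E-box was in 20 of 180 beside 7.26%. TCACNCCAC was in 0 of 180, beside 1.13% of all windows, which says only that these letters are absent from these windows. The windows of the sterol enzyme genes MVD, FDPS and LSS held no TCACNCCAC either. A match is a run of letters and was not tested as a binding site.

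Whether reads of the sense strand reach the antisense counts could not be settled, since the strand setting of the counting is not given in the sources used here. Of 322 genes that lie wholly inside exons of a gene on the other strand with at least 1000 summed counts, 318 had no count, and the highest of the other 4 had 46. Counting without strand that drops doubtful reads would give such zeros, and so would counting by strand where these genes are not transcribed, and the table does not tell the 2 apart. If strand was not used, the counts of the antisense RNAs come from bases they do not share, and unspliced sense reads that fall in such bases cannot be told apart from antisense reads.

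By annotation, 154 antisense RNAs shared exon bases with the other strand, 15 of them called, and 66 shared none, 4 of them called, while 1 was not in the annotation used. RUSC1-AS1 has 2425 unshared exon bases, of which 2196 lie in introns of genes on the other strand. SNAI3-AS1 has 3676 exon bases outside all other genes and PLS3-AS1 has 1842. The called RNAs DNAH17-AS1, FGF13-AS1, SLCO4A1-AS1 and SLC9A3-AS1 have no exon base outside other genes, as do 36 of the antisense RNAs in all, and the other 15 called ones have some. Both DNAH17-AS1 and its sense gene DNAH17 were higher (DNAH17 log2 fold change 0.62, adjusted p = 0.0143), as were FGF13 and SLC9A3 with their antisense RNAs. The part of unspliced sense RNA in these values was not tested.

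Other RNAs of the same kind were read in the same fit, with no test against the antisense RNAs above. Of 29 tested names ending in -AS, -AS2 to -AS9 or -DT 2 were higher (6.90%) and 0 lower by edgeR. At an unadjusted p under 0.05, 5 of the 29 were higher and 1 lower, beside 2390 and 2109 of all 14674 genes. Of 393 genes annotated as antisense in GENCODE without an -AS1 name 19 were higher (4.83%) and 7 lower (1.78%). Of 485 other lincRNAs 23 were higher (4.74%) and 7 lower (1.44%). Over all genes tested 8.32% were higher and 6.52% lower. Among protein-coding genes 1123 of 12404 were higher and 910 lower, at a median summed count of 3206 against 297 for the antisense RNAs.

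Antisense RNAs can be removed by the nuclear exosome and by nonsense-mediated decay, and paired with sense RNA they can meet proteins that bind double-stranded RNA. A list of 59 genes of these pathways was read in the same fit. It held 1 higher and 8 lower genes, or 15.3% called beside 14.8% of all genes. By direction this was 1.69% higher and 13.6% lower, beside 8.32% and 6.52% of all genes. The median log2 fold change was -0.08 beside 0.01 over all genes. The exosome genes EXOSC2 and EXOSC9, which encode a cap and a ring subunit, went from 111 ± 3.05 to 83.5 ± 2.01 CPM (adjusted p = 0.00477) and from 80.1 ± 3.24 to 61.0 ± 2.09 CPM (adjusted p = 0.00876). PABPN1, a nuclear poly(A) binding protein, fell by 0.51 on the log2 scale (adjusted p = 0.015).

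Of the genes of nonsense-mediated decay, EIF4A3 and MAGOH, both of the exon junction complex, fell by 0.41 and 0.66 on the log2 scale (adjusted p = 0.0117 and 0.0164). ILF2, a binder of double-stranded RNA, went from 660 ± 20.7 to 529 ± 22.2 CPM (adjusted p = 0.0129). The lower calls fell on 4 of 23 genes of the exosome list, 3 of 14 of the nonsense-mediated decay list and 1 of 22 of the duplex list, which also held the higher call, MAVS. These lower shares were 17.4%, 21.4% and 4.55%, beside 6.52% of all genes called lower. The count of 9 was 1 without fluoxetine library 1 and 1 without fluoxetine library 3, 5 and 4 without control libraries 1 and 2, and 18 without control library 3. Whether these changes bear on the antisense RNAs was not tested.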

How the data were processed

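Total RNA was extracted with TRIzol and sequenced as paired 150-base reads. Per the labels, the submitters' processing notes name fastp 0.20.0, HISAT2 2.1.0, HTSeq 0.10.0 and DESeq2 1.18.1 without their roles. The genome build and strand setting are not given in the sources used here, and 96.8% of 31635 rows found in GENCODE 29 (GRCh38) had its coordinates. The deposited table holds raw read counts per gene in 6 columns, together with the authors' log2 fold changes and p-values, which were not used. Of its 31762 rows 1643 repeated 126 symbols, always with identical counts, so 1 row per symbol (the longest exon length) was kept. The 221 antisense RNAs fill 223 rows.

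The counts were fitted in R 4.3.3 with edgeR 4.0.16 (TMM, filterByExpr, glmQLFit and glmQLFTest, no covariate, Benjamini-Hochberg adjustment over all 14674 genes tested), which all 221 antisense RNAs passed. Depth was 15999067 to 27571727 counts per library, and 3 counts correspond to 0.109 to 0.188 CPM. Alternatives were DESeq2 1.42.0, limma-voom (limma 3.58.1), other scalings and filters, equal depth, a replicate block and each library left out. The fit was tested on simulated data. CPM values carry TMM factors, and log2 values of ratios use a prior count of 2. Named were all called antisense RNAs, the 5 highest per kb, 3 on each side of the minimum, members of 2 lists, up to 6 decay genes and the 5 pairs whose ratio moved most. The members and lists were chosen with earlier results of these data known.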

Additional observations from a re-analysis of the deposited data

How the results depend on the processing

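In the 47 genes named (41 antisense RNAs and 6 decay and duplex genes), 589 of the alternative values kept their direction and their side of the threshold, 80 kept the direction and lost the call, 11 gained one and 15 changed sign. The count of 19 antisense RNAs was 37 with the replicate block (30 higher, 7 lower) and 4 among those with no exon base shared with the other strand, a list of 66. Leaving out 1 library gave 7 to 26. Without a filter 5 calls were lower, and at equal depth 1 was. The count of 4 at 2-fold became 7 with no filter, 9 with the replicate block, 2 at a summed count of at least 300 and 2 with no exon base shared. The 26 sense genes called became 46 with the block and 8 to 57 with 1 library left out. The 9 decay and duplex genes became 16 with no filter, 17 with the block and 1 to 18 with 1 library left out. The 48 pairs with separate ratios became 25 at a summed count of at least 300, which holds fewer pairs. With every deposited row, an alternative chosen after seeing the data, 16 antisense RNAs were called. DESeq2 gave IGFL2-AS1 no adjusted p, and the minimum of 10 counts in every library left it out.

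The replicate numbers were not taken to pair the libraries, since same-numbered libraries did not all deviate together: deviations from the group means correlated at -0.05, 0.11 and 0.39. Control libraries 2 and 3 correlated best with the fluoxetine library of their own number, and control library 1 with fluoxetine library 2 (0.33).

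Values that changed sign were all uncalled. With 1 library left out at a time the log2 fold change ran from -0.35 to 0.015 for ARRDC1-AS1, from -0.11 to 0.21 for ATP6V0E2-AS1, from -0.56 to 0.0034 for CEBPB-AS1, from -0.31 to 0.043 for CRYM-AS1 and from -0.18 to 0.049 for DPP10-AS1. It ran from -0.25 to 0.097 for ELFN1-AS1, from -0.016 to 0.13 for GABPB1-AS1, from -0.075 to 0.0097 for SLC16A1-AS1 and from -0.074 to 0.33 for TTN-AS1. At equal depth SLC16A1-AS1 had 0.0054 and TTN-AS1 -0.060. The causes were not tested. Depth limits the lowest members, since the shallowest library holds 3 counts at 0.188 CPM.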
